A study of Mus musculus with 7 samples.

Results

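AP-1 is a family of transcription factors of the basic leucine zipper (bZIP) class, and the 9 mouse genes described here are Fos, Fosb, Fosl1, Fosl2, Jun, Junb, Jund, Atf3 and Batf. Every probe set of the array that the platform annotation assigned to exactly 1 of these genes was taken, whatever its level. This gave 13 of 45037 non-control probe sets, or 9 of 18193 genes. Fosl1, Fosl2, Jun and Jund had 2 probe sets each, the other 5 genes had 1 each, and 0 probe sets shared by several genes held a member. Where a gene had 2 probe sets, the one with the higher mean log2 value over all arrays leads in the text and the other is called the second.

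The proteins work as pairs. A Fos-family protein needs a Jun-family partner, whereas Jun proteins can also pair among themselves, and the pair binds the short DNA element after which AP-1 is named or the related cyclic AMP response element. Fos, Fosb, Jun and Junb are immediate early genes, transcribed within minutes of growth factor, wound or stress signals that arrive through MAP kinases, and their mRNAs are short-lived. In epidermis AP-1 factors are known for regulating genes of the differentiating, cornifying layers and for roles in wound healing and skin tumour formation.

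RNA was measured on 7 single-channel Affymetrix arrays. The tumour arrays (n = 2) held basal cell carcinoma dissected from mice, and the epidermis arrays (n = 2) held normal epidermis of newborn (P0) mice. The remaining 3 arrays held PDKC1, a cell line derived from mouse basal cell carcinoma, either untreated (0 h) or exposed for 6 h or 10 h to cyclopamine, which inhibits Smoothened and thereby the Hedgehog pathway. The labels give no genotype, strain, driver of the tumours, tumour age, clonal origin of PDKC1, or dose and vehicle of cyclopamine. Tumour status and age cannot be told apart, because the epidermis is newborn. No label says that the replicates are separate animals, so a p-value here reflects the spread of these particular samples, possibly a technical one. A lower signal in a dissected tissue can come from fewer cells of a type or from less RNA per cell, and bulk arrays cannot tell these apart.

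Each array had been scaled to a trimmed mean of 500.0, yet the median intensity of non-control probe sets was 118.2 and 127.9 on the tumour arrays, 71.0 and 75.3 on the epidermis arrays and 72.1 to 78.1 on the PDKC1 arrays. In the fit of tumour against epidermis with limma, 8255 probe sets were called higher and 4132 lower, with a median difference of 0.19 on the log2 scale. With quantile normalization the split was 5671 higher and 5092 lower (median -0.11), and with median centring of the arrays it was 4804 higher and 8617 lower (median -0.32). The table carries no detection calls. The 20th percentile of intensity was 23.1 to 27.9 on the tumour arrays, 16.2 to 17.1 on the epidermis arrays and 12.8 to 14.7 on the PDKC1 arrays, and values near it have no order among themselves. The 3' to 5' intensity ratio of the Actb control probe sets was 11.3 and 93.1 on the tumour arrays, 2.84 to 3.98 on the epidermis arrays and 1.15 to 1.21 on the PDKC1 arrays. For the Gapdh control probe sets it was 10.6 and 15.4 in tumour, 4.52 to 5.27 in epidermis and 0.70 to 0.74 in PDKC1. The part of this ratio in the differences described here was not tested. Basal keratinocyte markers were present in every group, with summed intensities of 72773 to 103440 in tumour, 98804 to 121710 in epidermis and 95235 to 99130 in PDKC1, and 1 of the 7 was lower in tumour. Of 7 suprabasal keratinocyte markers 6 were lower in tumour (sums of 35847 to 54969 against 185200 to 186600), and in PDKC1 the sum was 1056 to 1301.3. Of 8 fibroblast markers 7 were higher in tumour (65766 to 77840 against 12037 to 14742), and the sum in PDKC1 was 578 to 746.1. Skeletal muscle markers summed to 13539 and 2902.3 in the 2 tumours and to 268 and 372.5 in epidermis, with 3 of 8 called higher.

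The sequence just upstream of the start site is shown for the 5 genes whose leading probe set differed between tumour and epidermis, since these are the regions through which immediate early transcription begins. Sequences are 200 bases before the start, 5′ to 3′ on the gene's strand, from RefSeq with the build GRCm38.p6, and 8 of the 9 members were matched (Fosl1 was not analysed here). Capitals mark matches to TNACNTCA (a form of AP-1 and cyclic AMP response elements), TGACG (the core of a cyclic AMP response element), CCAAT and TATAA. Both strands were searched over 250 bases before the start, and TGANTCA, the classical AP-1 element, was searched too.
Fos, chr12:85473690-85473889, plus strand: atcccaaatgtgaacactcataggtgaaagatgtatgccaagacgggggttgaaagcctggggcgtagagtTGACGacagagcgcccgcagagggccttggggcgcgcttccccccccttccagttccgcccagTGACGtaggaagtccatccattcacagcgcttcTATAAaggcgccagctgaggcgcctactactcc
Jun, chr4:95052223-95052422, minus strand: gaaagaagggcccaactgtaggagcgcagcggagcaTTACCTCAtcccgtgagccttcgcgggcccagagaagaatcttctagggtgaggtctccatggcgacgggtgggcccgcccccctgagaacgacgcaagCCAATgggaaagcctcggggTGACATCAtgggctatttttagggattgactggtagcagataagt
Junb, chr8:84978749-84978948, minus strand: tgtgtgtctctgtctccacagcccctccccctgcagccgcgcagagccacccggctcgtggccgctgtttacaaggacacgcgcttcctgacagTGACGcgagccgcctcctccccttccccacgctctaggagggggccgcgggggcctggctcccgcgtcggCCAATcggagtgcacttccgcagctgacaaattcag
Atf3, chr1:191183334-191183533, minus strand: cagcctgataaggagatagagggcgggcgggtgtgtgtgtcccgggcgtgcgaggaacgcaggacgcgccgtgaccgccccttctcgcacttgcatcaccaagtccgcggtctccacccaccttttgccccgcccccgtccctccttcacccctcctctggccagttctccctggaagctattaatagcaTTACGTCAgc
Batf, chr12:85686520-85686719, plus strand: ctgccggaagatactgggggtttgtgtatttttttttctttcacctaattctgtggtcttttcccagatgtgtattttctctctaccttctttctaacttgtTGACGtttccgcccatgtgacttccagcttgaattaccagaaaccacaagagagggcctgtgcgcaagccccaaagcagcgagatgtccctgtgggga
The Fos sequence holds TGACG at positions -129 and -66 from the start, counted at the first base of the match, and TATAA at -33. The Jun sequence holds TTACCTCA at -164, TGACATCA at -45 and CCAAT at -65. Junb has TGACG at -106 and CCAAT at -36, and Batf has TGACG at -98. In Atf3 the match TTACGTCA at -10 also contains TGACG on the opposite strand, so that the 2 motifs overlap. Outside these 5 genes, Fosb holds TGACG at -60, Jund holds TNACNTCA on the opposite strand at -95, and Fosl2 holds 0 matches. TGANTCA matched in 0 of the 8 sequences. Over 32851 promoters of the same length, TGANTCA occurred in 6.75%, TNACNTCA in 14.0%, TGACG in 17.8%, CCAAT in 33.8% and TATAA in 22.8%. A match describes letters only and shows no binding. Fos, Jdp2 and Batf lie next to each other on chromosome 12, with 0 coding genes between neighbours.

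Comparing dissected tumour with epidermis, Fos, Jun, Junb and Atf3 were lower in the tumours, by 3.17- to 6.73-fold, and Batf was higher, against epidermis values near the dim end of the arrays. Fosb, Fosl1, Fosl2 and Jund were not called. By probe set, 5 of 13 were lower and 1 was higher, at an adjusted p under 0.05 from limma on log2(intensity + 16), with adjustment over all 45037 probe sets; of all probe sets 9.17% were lower and 18.3% higher. The tumour values lay below both epidermis values for 9 of the 13, against 25.0% of all probe sets, and above both for 2, against 38.4%. Without epidermis 1 or 2 the counts were 2 lower (Fos and the leading Jun probe set) and 0 higher, and without tumour 2 the higher count was also 0. The median difference of the 13 was -0.66 on the log2 scale, against 0.19 over all probe sets.

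**Figure D1:**
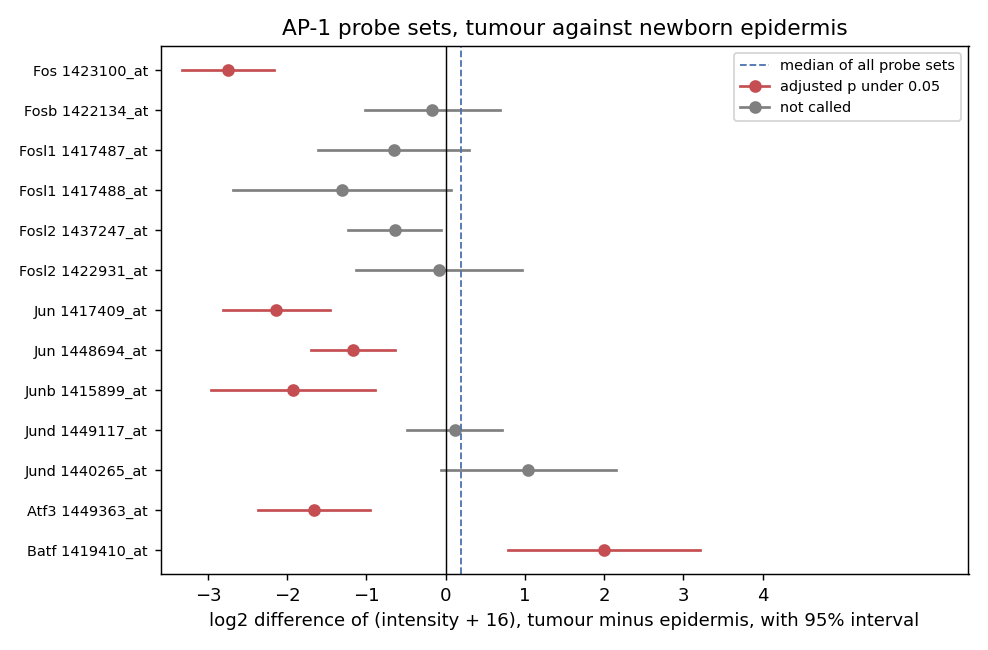
Difference between tumour (n = 2) and newborn epidermis (n = 2) for the 13 AP-1 probe sets, in log2(intensity + 16), with the 95% interval from limma; red points have an adjusted p under 0.05 and the dashed line is the median of all probe sets (0.19). Fos lies lowest at -2.75, both Jun probe sets, Junb and Atf3 lie below 0, and Batf is the 1 red point above 0.

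Fos encodes c-Fos, the archetypal partner of Jun. Its signal was 3881.2 and 2826.5 on the tumour arrays, 22026.9 and 22751.4 on the epidermis arrays, and 915.2, 883.8 and 1053.5 in PDKC1 at 0 h, 6 h and 10 h. The groups were well apart: both epidermis arrays were far above both tumours, and all 3 PDKC1 arrays were below both. The tissue means were 3353.8 ± 745.8 in tumour and 22389 ± 512.3 in epidermis (SD, n = 2 each). The log2 difference was -2.75 ± 0.25 (SE; 95% interval -3.33 to -2.17; limma adjusted p = 0.000617). Relative to the median of all probe sets it was -2.95 as deposited, -2.21 with quantile normalization and -3.18 with centring.

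Fosb encodes a close relative of c-Fos with the same partners. It read 168.4 and 165.1 in tumour, 204.1 and 176.1 in epidermis, and 40.8, 67.2 and 55.8 in PDKC1 in order of time. The tissue values were nearly level as deposited, and all 3 PDKC1 values were under the median of their array. The difference of -0.17 ± 0.36 (SE) had a 95% interval of -1.02 to 0.68 and a limma adjusted p of 0.785. It was -0.98 with quantile normalization and -0.85 with centring (limma adjusted p = 0.112 and 0.125), so that its size depended on the scaling.

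Fosl1 encodes Fra-1, a Fos-family protein without the strong activation domain of c-Fos. The leading probe set gave 124.0 and 107.7 in tumour, 229.7 and 159.3 in epidermis, and 374.2, 370.3 and 200.8 in PDKC1 at the 3 times. It was highest in untreated PDKC1 and at 6 h, where every tissue array was lower. The tumour values were below both epidermis values, but the difference of -0.66 ± 0.41 (SE; interval -1.61 to 0.30) was not called by limma (adjusted p = 0.294). The second probe set read 3.9 and 8.2 in tumour, 77.0 and 15.9 in epidermis, and 118.5, 146.9 and 59.0 in PDKC1, with both tumours under the 20th percentile of their arrays (limma adjusted p = 0.149). Across the 7 arrays the 2 probe sets had a Pearson r of 0.963. With centring the leading probe set was called lower (-1.32, limma adjusted p = 0.0488).

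Fosl2 encodes Fra-2, a Fra-1 relative. Its leading probe set measured 4883.5 and 6958.8 in tumour, 9261.5 and 8965.8 in epidermis, and 3230.3, 3036.4 and 3827.8 in PDKC1. Epidermis was above both tumours, which were above all 3 PDKC1 arrays. The difference was -0.64 ± 0.25 (SE; interval -1.23 to -0.05), with a limma adjusted p of 0.103. It was called lower with centring (-1.39, limma adjusted p = 0.00679) and with all 7 arrays in the fit (0.0274). With quantile normalization it was -0.24 (limma adjusted p = 0.511), and as the mean of both probe sets -0.36 (0.304). Without tumour 1 it was -0.39, and without tumour 2 it was -0.90. The size thus depended on the scaling. The second probe set behaved otherwise: it read 89.4 and 114.9 in tumour, 123.6 and 95.1 in epidermis, and 224.7, 147.7 and 219.9 in PDKC1. Here the tissues overlapped (-0.08 ± 0.45 SE, limma adjusted p = 0.918), PDKC1 was highest, and the Pearson r with the leading probe set over 7 arrays was -0.671. The rank of PDKC1 for Fosl2 therefore differs between the probe sets.

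Jun encodes c-Jun, the main partner of the Fos proteins. The leading probe set gave 858.4 and 569.0 in tumour, 2670.0 and 3665.3 in epidermis, and 1744.7, 1884.9 and 2259.0 in PDKC1. The groups did not overlap, and PDKC1 lay between the tissues. The tissue means were 713.7 ± 204.6 and 3167.7 ± 703.8 (SD, n = 2 each), a difference of -2.14 ± 0.29 (SE; interval -2.81 to -1.46) or 4.40-fold, with a limma adjusted p of 0.00204. The second probe set read 1263.2 and 1521.5 in tumour, 2896.4 and 3381.4 in epidermis, and 1067.2, 881.6 and 913.8 in PDKC1. It too was lower in tumour (-1.17 ± 0.23 SE, limma adjusted p = 0.00863), but it placed PDKC1 below both tumours, and its Pearson r with the leading probe set was 0.389 over 7 arrays. Without epidermis 1 or 2 the call on this second probe set was lost (limma adjusted p = 0.0982 and 0.150), as it was without the variance trend (0.0575).

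Junb encodes a Jun-family protein that can restrain c-Jun and keratinocyte growth. It measured 498.6 and 177.9 in tumour, 1178.1 and 1187.0 in epidermis, and 450.0, 426.0 and 352.1 in PDKC1. The epidermis arrays were nearly identical, the tumours were far apart from each other, and the 3 PDKC1 values fell between the tumours. The difference was -1.92 ± 0.44 (SE; interval -2.96 to -0.89), or 3.79-fold, with a limma adjusted p of 0.0167. It was -2.63 without tumour 1 and -1.22 without tumour 2. The call was lost without epidermis 1 or 2 (limma adjusted p = 0.113 and 0.111) and without the variance trend (0.0557).

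Jund encodes a Jun-family protein that is expressed in most cells without stimulation. Its leading probe set gave 2708.3 and 3907.8 in tumour, 2764.0 and 3266.9 in epidermis, and 1864.5, 2541.5 and 2653.0 in PDKC1. The tissues overlapped, and all PDKC1 values were below all tissue values. The difference of 0.11 ± 0.26 (SE; interval -0.48 to 0.71; limma adjusted p = 0.795) was -0.63 with centring, so that its sign depended on the scaling. The second probe set read 44.6 and 46.2 in tumour, 18.9 and 9.5 in epidermis, and 78.5, 57.9 and 49.8 in PDKC1. It was over the median of its array on 1 of 7 arrays, its difference from dim epidermis values was not called (limma adjusted p = 0.152), and its Pearson r with the leading probe set was -0.536 over 7 arrays.

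Atf3 encodes a bZIP protein induced by stress, often through ATF4, that pairs with Jun proteins. It read 153.9 and 166.4 in tumour, 510.3 and 575.8 in epidermis, and 126.8, 80.2 and 141.1 in PDKC1. Both epidermis arrays were over 3 times as bright as either tumour, and the PDKC1 arrays were below the tumours. The difference was -1.66 ± 0.30 (SE; interval -2.37 to -0.96), or 3.17-fold, with a limma adjusted p of 0.00656. Without epidermis 1 or 2 the limma adjusted p was 0.0861 and 0.110.

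Batf encodes a small bZIP protein that pairs with Jun proteins and is best known in lymphocytes and dendritic cells. It was the 1 member higher in tumour, with 88.4 and 141.3 against 19.3 and 13.0 in epidermis, and 43.7, 79.7 and 15.9 in PDKC1. Its signal was low, near the 20th percentile of the array in epidermis and in PDKC1 at 10 h, and over the median of its array only in tumour 2 and in PDKC1 at 6 h. The fitted log2 difference was 2.00 ± 0.52 (SE; interval 0.79 to 3.21; limma adjusted p = 0.0260), a size that the pseudocount sets in part. It ranged from 1.14 with a pseudocount of 64 to 2.54 with a pseudocount of 4. The call was lost with quantile normalization (1.58, limma adjusted p = 0.0599), with centring (1.45, 0.0630), without tumour 2 (0.0896) and without epidermis 1 or 2 (0.106 and 0.144). Markers of T and NK cells summed to 333.5 and 523.4 in tumour and 345.8 to 348.8 in epidermis, with 0 of 8 called by limma and 1 at an unadjusted p under 0.05. Of 7 markers of MHC class II and Langerhans cells 4 were higher in tumour (sums of 8814.8 to 11446 against 636.3 to 655.8). The 4 were H2-Aa, H2-Ab1, H2-Eb1 and Cd74, and H2-Aa alone read 6286.7 and 5947.4 in tumour. Cd207, Itgax and Ciita were not called (limma adjusted p = 0.204, 0.447 and 0.333). Of 8 mast cell markers 5 were higher (5161.3 to 5417.8 against 907.6 to 1285.4). The part of any of these cell types in the Batf difference was not tested.

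**Figure D2:**
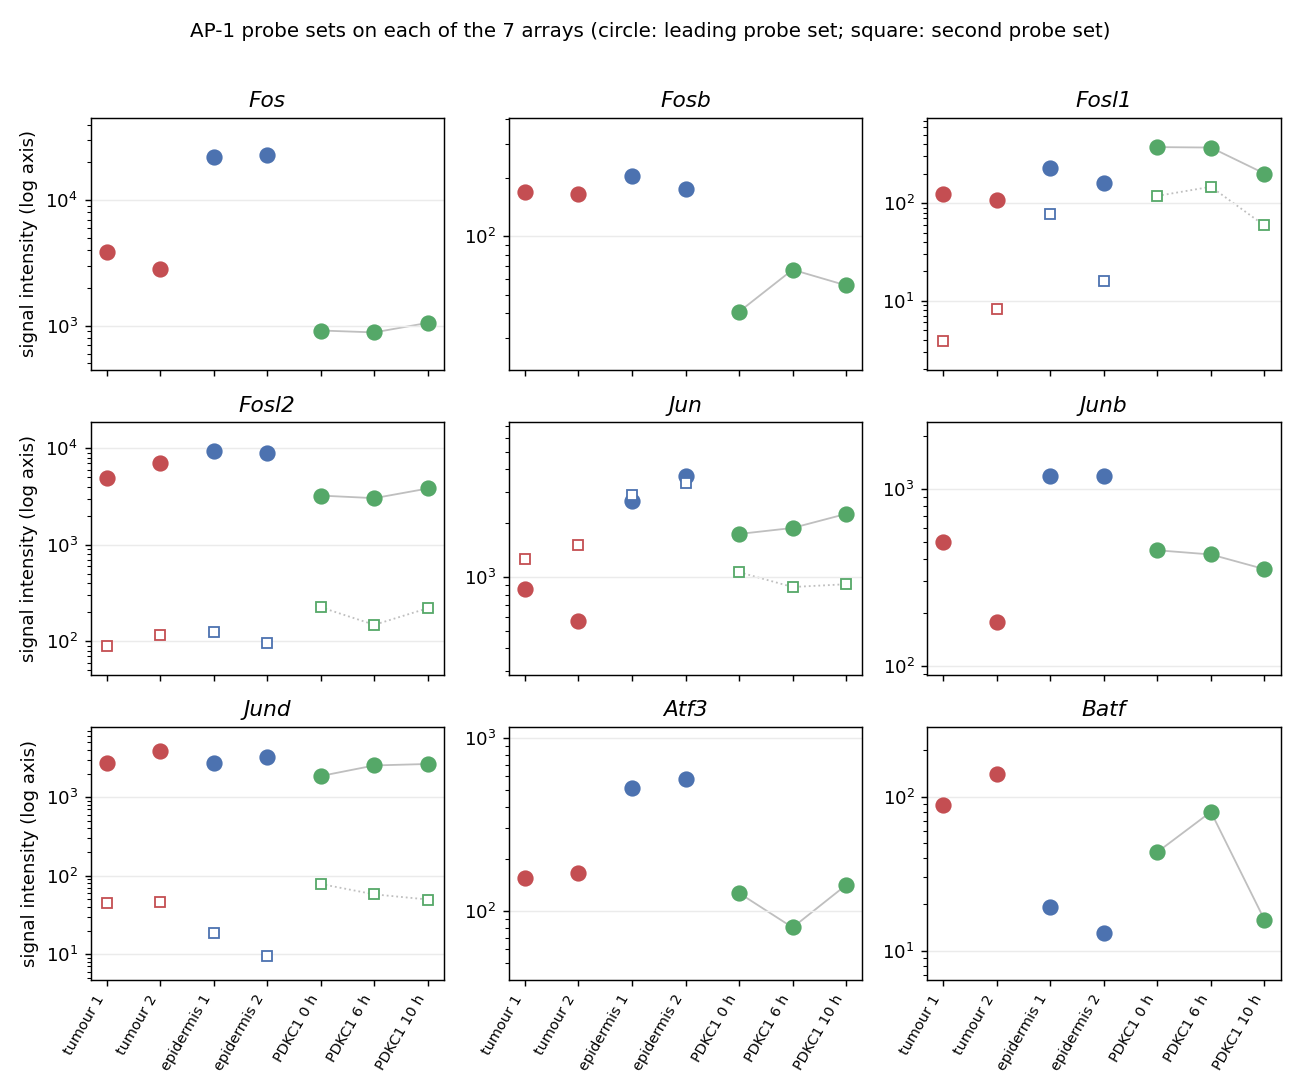
Signal intensity of each AP-1 probe set on each of the 7 arrays, on a log axis with its own range per gene; circles are leading probe sets, open squares second probe sets, and grey lines join the 3 PDKC1 times. The epidermis points of Fos, Junb and Atf3 lie above all other arrays, whereas those of Batf lie below both tumour points.

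Ordered by level across the 5 conditions, with the mean for each tissue, Fos, Atf3 and the leading probe set of Fosl2 shared 1 order: epidermis, tumour, then PDKC1 at 10 h, 0 h and 6 h. Fosb ran epidermis, tumour, then PDKC1 at 6 h, 10 h and 0 h. The leading Jun probe set ran from epidermis through PDKC1 at 10 h, 6 h and 0 h to tumour, and Junb from epidermis through PDKC1 at 0 h, 6 h and 10 h to tumour. Fosl1 ran from PDKC1 at 0 h, 6 h and 10 h through epidermis to tumour. Jund ran tumour, epidermis, then PDKC1 at 10 h, 6 h and 0 h, and Batf ran tumour, PDKC1 at 6 h and 0 h, then epidermis and PDKC1 at 10 h, which were both near the 20th percentile of their arrays and have no order. The difference between tumour and epidermis was not called for Fosb, Fosl1, Fosl2 or Jund, so their order there is not settled. For Junb the 2 tumours enclosed all 3 PDKC1 values, so the place of PDKC1 above the tumour mean is not settled either. For Fosl1 the value of PDKC1 at 10 h (200.8) lay between those of the epidermis arrays (229.7 and 159.3). Its place above the epidermis mean is thus not settled. The PDKC1 arrays have no spread to set between their ranks. PDKC1 RNA was labelled from 2 µg against 100 ng for each tissue, so that cell type and labelling input cannot be told apart between PDKC1 and the tissues.

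The 3 PDKC1 times were set side by side with 1 array each and without a test. Between 6 h and 10 h the largest differences among the members were those of Batf (79.7 to 15.9, or -1.59 in log2(intensity + 16)) and of the second and leading Fosl1 probe sets (-1.12 and -0.83). The Batf value at 10 h was near the 20th percentile of its array (12.8), so that the pseudocount sets this size in part. The spread of the difference between 6 h and 10 h over all probe sets is not given here. Of the 12 probe sets over the median on at least 1 PDKC1 array (all but Fosb), 0 differed from 0 h by 2-fold or more, with 1 sign, at both treated times, against 2.29% of 25111 probe sets on the array. The middle 95% of those probe sets spanned -1.14 to 0.97 at 6 h and -1.11 to 1.06 at 10 h on the log2 scale. All 13 members lay inside these ranges at both times. The members' median difference was -0.05 at 6 h and -0.03 at 10 h.

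Fos differed from 0 h by -0.05 at 6 h and 0.20 at 10 h in log2(intensity + 16), and the leading Jun probe set by 0.11 and 0.37. The second Jun probe set had the opposite sign, at -0.27 and -0.22. Junb stood at -0.08 and -0.34, Jund at 0.44 and 0.51 with its second probe set at -0.35 and -0.52, and Fosl2 at -0.09 and 0.24 with its second at -0.56 and -0.03. For Jun and Jund the sign at both times thus depended on the probe set. Atf3 was at -0.57 and 0.14, and Fosb at 0.55 and 0.34. Both Fosl1 probe sets were near or above 0 h at 6 h (-0.01 and 0.28) and below it at 10 h (-0.85 and -0.84). Batf was above 0 h at 6 h (0.68) and below it at 10 h (-0.90).
At 1.5-fold, 1 of the 12 was higher at 6 h (Batf; 5.85% of all) and 0 were lower (7.73%). At 10 h 0 were higher (7.85%) and 3 were lower (both Fosl1 probe sets and Batf; 7.59%).

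**Figure D3:**
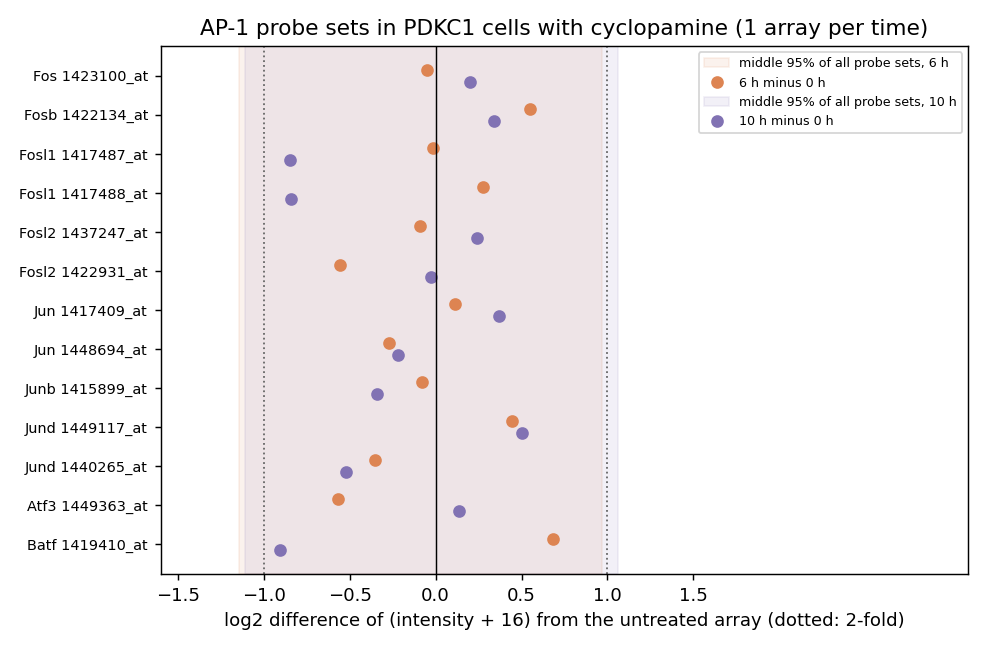
Difference of each AP-1 probe set in PDKC1 at 6 h (orange) and 10 h (purple) of cyclopamine from the untreated array, in log2(intensity + 16), 1 array per time; shaded bands span the middle 95% of all probe sets over the array median and dotted lines mark 2-fold. All 13 members lie inside the bands, with both Fosl1 probe sets and Batf furthest to the left at 10 h.

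Among the leading probe sets of the 9 members, Pearson correlations over the 7 arrays were computed for 36 pairs and are given as descriptions. Fos and Atf3 were the most alike (0.957), followed by Fos and Fosl2 (0.939) and Fosl2 and Atf3 (0.909). Jun and Batf ran the most opposite courses (-0.907), followed by Fosl1 and Jund (-0.803). Fos and Jun, which encode the classical pair, had an r of 0.348: PDKC1 was the lowest group for Fos and lay between the tissues for the leading Jun probe set. The second Jun probe set instead had the group order of Fos, with PDKC1 below both tumours. The low r therefore holds for the leading Jun probe set only. The 7 points form 3 groups and share scaling, so that each r mostly restates the order of the groups.

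Among 11840 genes compared over the same 7 arrays, the non-member patterns most like Fos were those of Gm2a, Serpinb3a and Dnase1l2 (Pearson r 0.999 each). For Fosb they were Cd33 (0.997), Sacm1l (0.994) and Stxbp3 (0.992), and for Fosl1 they were Hps6 (0.988), 2900057B20Rik (0.985) and Pigb (0.975). For Fosl2 they were Igbp1 and Magt1 (0.995 each) and Car6 (0.992). For Jun they were Tbc1d10a and 2810025M15Rik (0.993 each) and Katna1 (0.992), and for Junb they were Ubxn6 (0.994), Alg5 (0.993) and Tmem60 (0.990). For Jund they were Ifngr2 (0.984), Ccdc68 (0.972) and Ddx6 (0.967). The closest to Atf3 were Serpinb6c (0.989), Tjp3 (0.988) and 4930438A08Rik (0.987), and to Batf Nsd2 (0.960), Tmem25 (0.958) and Lyve1 (0.953). Each gene was picked for its high r among all 11840 over only 7 arrays, so the size of r is no evidence of a link. Some patterns include values under the 20th percentile of their arrays, such as Hps6 in tumour (8.4 and 6.1) and Tmem25 in epidermis (1.7 and 8.4).

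The genes around AP-1 were counted in 8 lists, each gene standing by its brightest probe set, and set beside the leading probe sets of all 18193 genes, of which 16.2% were higher and 12.3% lower, with a median difference of 0.088 on the log2 scale. Of 10 bZIP relatives, 3 were higher in tumour and 1 was lower (median 0.44). Atf2, a Jun partner, was higher by 2.02 ± 0.28 on the log2 scale (SE; limma adjusted p = 0.00238), and Maf, a large Maf protein, by 1.56 ± 0.25 (0.00387). Jdp2, a repressor that pairs with Jun and lies between Fos and Batf in the genome, was higher by 1.74 ± 0.35 (0.0102). Its values were 509.2 and 387.3 in tumour and 141.7 and 105.2 in epidermis, so that Jdp2 and Batf were higher and their neighbour Fos was lower. Maff, a small Maf protein, was lower (-1.88 ± 0.36, 0.00799). Without epidermis 1 or 2, limma adjusted p was 0.0664 and 0.106 for Jdp2, 0.0542 and 0.0743 for Maf and 0.107 and 0.0840 for Maff. For Jdp2 it was 0.0689 with quantile normalization and 0.0748 with centring.

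Upstream, of 17 MAP kinases, their kinases and the factors they act on, 5 were higher and 6 lower (median 0.22). With centring the split was 1 higher and 6 lower, and without epidermis 1 it was 0 higher and 3 lower (without epidermis 2, 0 and 4). The 4 largest differences were MAP kinase kinases, all lower in tumour: Map2k6 (-3.15 ± 0.30 SE, limma adjusted p = 0.000706), Map2k3 (-2.51 ± 0.42, 0.00490), Map2k2 (-2.10 ± 0.31, 0.00277) and Map2k4 (-2.09 ± 0.26, 0.00153). Without epidermis 1 the adjusted p of Map2k3 was 0.0554. Map2k3 and Map2k6 activate p38, Map2k4 activates JNK, which phosphorylates c-Jun, and Map2k2 activates ERK.

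Of 11 dual-specificity phosphatases, which switch MAP kinases off and are themselves induced by them, 4 were lower and 0 higher at the adjusted threshold in limma (median -0.47), and 4 had an unadjusted p under 0.05. Dusp14 was lower by the most (-5.36 ± 0.70 SE, limma adjusted p = 0.00187), with 175.9 and 17.8 in tumour against 3292.2 and 3287.1 in epidermis. Its value in tumour 2 was under the 20th percentile of that array, so that the pseudocount sets this size in part. Dusp5, with 21.7 and 20.6 in tumour against 419.3 and 256.4 in epidermis, was called lower too (0.00295). Its tumour signal was too dim for a size. Dusp16 had a difference of -2.46 ± 0.21 (0.000546) and Dusp1, an immediate early gene, of -2.45 ± 0.30 (0.00147). In PDKC1, with 1 array per time and no test, Dusp5 read 344.2, 236.7 and 121.3 at 0 h, 6 h and 10 h. Its log2 difference was -1.39 at 10 h. Dusp2, not called between the tissues, fell further on this scale, with 86.6, 32.4 and 20.2 at the same times. The Dusp2 values at 6 h and 10 h were under the median of their arrays. Dusp6, the brightest of the 11 in PDKC1, fell less, from 13260.9 at 0 h to 9725.6 at 10 h. The 10 h difference was 0.07 for Dusp14, 0.26 for Dusp16 and 0.39 for Dusp1, and the median of the 11 was -0.14.

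Of 9 genes that govern the stability of AP-1 mRNAs and proteins, 2 were higher and 2 lower (median -0.22); with centring 0 were higher and 7 lower, and without epidermis 1 or 2 there were 0 higher and 1 lower. Zfp36, whose product tristetraprolin destabilises AU-rich mRNAs including that of Fos, read 576.8 and 259.3 in tumour and 3206.2 and 4035.2 in epidermis (-3.16 ± 0.37 SE, limma adjusted p = 0.00130). Cop1, a ubiquitin ligase for c-Jun, had a difference of -1.33 ± 0.21 (0.00366). Khsrp, another AU-rich element binding protein, was higher by 1.62 ± 0.30 (0.00750), and Zfp36l2 by 0.84 ± 0.22 (0.0282). The last 3 calls were lost without either epidermis array (adjusted p 0.0544 to 0.280 in limma), and those of Khsrp and Zfp36l2 also with centring (0.0683 and 0.811).

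Downstream, of 19 textbook AP-1 targets 7 were higher in tumour and 3 lower (median 0.93), with 5 and 3 under quantile normalization, 4 and 4 with centring, and 3 and 2 without epidermis 1 or 2. The higher genes named by size were Ptgs2, which makes prostaglandins (231.7 and 374.8 against 2.4 and 17.7, too dim in epidermis for a size; limma adjusted p = 0.00322), and the matrix protease gene Mmp3 (1068.1 and 368.8 against 68.3 and 29.2; 3.39 ± 0.58 SE, 0.00512). The lower ones were Hmox1, the haem-degrading enzyme, and Ereg, an EGF receptor ligand (-2.43 ± 0.31 SE, limma adjusted p = 0.00163). Hmox1 read 37.9 and 22.2 in tumour against 595.2 and 595.8 in epidermis (limma adjusted p = 0.000964), too dim in tumour for a size. Of 10 epidermal genes with known AP-1 sites, 6 were lower and 2 higher (median -2.51). Ivl, which encodes the cornified envelope protein involucrin, read 406.2 and 280.7 in tumour and 17192.2 and 19757.9 in epidermis (-5.70 ± 0.25 SE, limma adjusted p = 0.000214), and Tgm1, the enzyme that crosslinks the envelope, had a difference of -5.08 ± 0.54 (0.000915). The 2 higher were S100a8 (5.63 ± 0.52, 0.000662) and S100a9 (3.95 ± 0.51, 0.00182), the calprotectin subunits. This list shares Ivl, Tgm1, Krt1 and Krt10 with the suprabasal markers given above.

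Among 21 other immediate early genes, 9 were lower and 2 higher (median -0.22). Without epidermis 1 the count was 1 lower and 2 higher, and without epidermis 2 it was 1 lower and 3 higher. Btg2, an antiproliferative gene, had a difference of -2.46 ± 0.23 (SE; limma adjusted p = 0.000679) and Ier2 one of -2.42 ± 0.54 (0.0151; without epidermis 1 or 2, 0.0705 and 0.104). Nr4a2, an orphan nuclear receptor, was higher by 3.70 ± 0.39 (0.000926), and Ccn2, a matrix-associated growth factor gene, by 3.64 ± 0.22 (0.000296). Egr1, a commonly used immediate early gene named here after its values were seen, read 10889.8 and 8499.0 in tumour and 9632.5 and 11032.9 in epidermis (-0.10 ± 0.24 SE, limma adjusted p = 0.813). Its groups overlapped, unlike those of Fos.

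Of 10 genes of the ATF4 stress response, to which Atf3 belongs, 6 were lower in tumour and 0 higher in limma (median -1.56), with 7 at an unadjusted p under 0.05; without epidermis 1 or 2 there were 3 and 2 lower. The list is broad and also holds Hspa5 and Xbp1, genes of the wider unfolded protein response. Neither was called (limma adjusted p = 0.854 and 0.399). Chac1, which degrades glutathione, had a difference of -3.86 ± 0.27 (SE; limma adjusted p = 0.000414) and the pseudokinase gene Trib3 one of -3.03 ± 0.29 (0.000688). Herpud1, of endoplasmic reticulum degradation, had a difference of -2.39 ± 0.40 (0.00479; 0.0531 without epidermis 2), and Ppp1r15a, which restores translation, one of -1.89 ± 0.36 (0.00811; 0.0869 and 0.0798 without epidermis 1 or 2). In PDKC1, Chac1 read 770.5, 609.7 and 114.2 and Trib3 584.6, 379.3 and 147.3 at the 3 times, with log2 differences of -2.59 and -1.88 at 10 h. The other 8 lay between -0.96 and 0.18 at 10 h, and the median of the 10 was -0.30. Atf3 itself was 126.8 at 0 h and 141.1 at 10 h, on 1 array each.

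**Figure D4:**
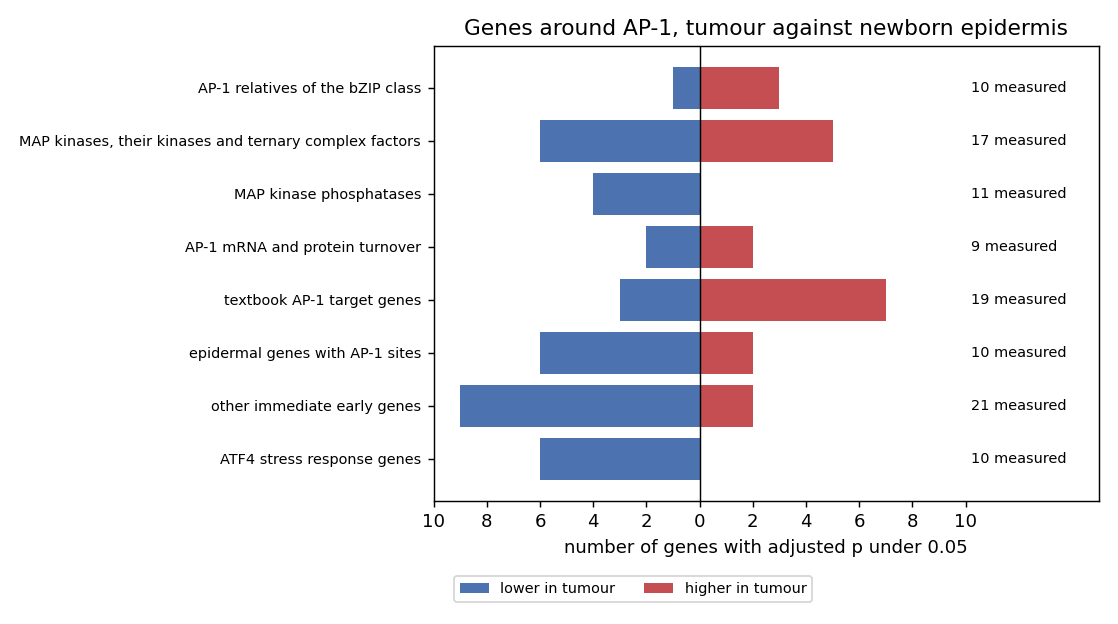
Number of genes in each of 8 lists around AP-1 with a limma adjusted p under 0.05, lower in tumour to the left (blue) and higher to the right (red), with the number of genes measured at the right edge. Phosphatases and ATF4 response genes have bars only on the lower side, and AP-1 targets have 7 higher and 3 lower.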

How the data were processed

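The deposited table holds 1 linear signal intensity per probe set and array, made by the authors with software not given in the sources used here. Per the labels' protocols, cRNA was labelled from 100 ng (tissue) or 2 µg (PDKC1). Of 45101 probe sets, 64 controls were left out. Genes come from the platform annotation, which gave 34945 probe sets 1 gene, 932 several and 9160 none.

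Values were taken as log2(intensity + 16) without further normalization. The 4 tissue arrays were fitted with lmFit and trended eBayes (limma 3.58.1, R 4.3.3), two-sided, with Benjamini-Hochberg adjustment over 45037 probe sets. PDKC1 was described without a test. Fold changes of dim probe sets are understated on this scale, and the number of arrays limits the precision.

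Named were all 13 member probe sets, up to 4 called genes per list by size of difference, and the 3 genes most like each member, among genes with a range of at least 1 (log2). Exceptions are stated. Members and lists were chosen with earlier results of these data known, so calls on them are not independent support. Alternatives changed the scaling, pseudocount (4 or 64), level filter, variance trend, probe set choice, replicate block, arrays fitted and fold (1.5).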

Additional observations from a re-analysis of the deposited data

How the results depend on the processing

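The count of AP-1 probe sets higher in tumour, 1 as reported, was 0 with quantile normalization, 0 with centring and 0 among probe sets over the 40th percentile of mean level, where Batf was not tested; leaving out 1 array gave 0 to 1. The count of lower probe sets, 5 as reported, was 3 without the variance trend, 6 with all 7 arrays in the fit and 7 with centring. Over all 45037 probe sets the lower calls moved too. They were 4132 as reported, 2803 without the variance trend, 5801 with all 7 arrays in the fit and 8617 with centring. Leaving out epidermis 1 or 2 left 2 lower, Fos and the leading Jun probe set, and all-probe-set calls then came to 3471 higher and 1088 lower, or 3971 and 1237. The difference for Jund was -0.63 with centring and -0.15 to 0.38 when 1 array was left out, and that of the second Fosl2 probe set -0.25 to 0.080 in the same way. Fos and the leading Jun probe set were called lower under all 14 alternatives (adjusted p up to 0.0153 and 0.0406 in limma). The count at 2-fold in PDKC1 was 0 as reported. Replicate numbers are not tied across tissues by any label, and the deviations of same-numbered arrays had a correlation of -0.0009 over 45037 probe sets; with the replicate block 1 probe set was higher and 5 lower. The cause of these changes was not tested.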
